A study of Mus musculus with 28 samples.

Results

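Integrins are the receptors with which cells hold on to the extracellular matrix and to each other, and laminins are the main glycoproteins of the basement membranes that many integrins bind. The genes described here were every row of the count table whose symbol is that of an integrin alpha subunit, an integrin beta subunit or a laminin chain. The rule found 37 genes among 29068 symbols, of which 18 code for integrin alpha subunits, 8 for integrin beta subunits and 11 for laminin alpha, beta or gamma chains. All 37 passed the filter on low counts and were tested with 18107 genes in all.

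RNA was sequenced from the skin of young adult C57BL/6J mice, MLKL+/+ and of both sexes, in which a circular punch wound on the back, reaching the fascia, healed without treatment. The tissue held the whole wound with its scab and margins, taken on days labelled 3, 5, 7, 10, 12 or 14, and skin at day 0 served as the control. Days are given as labelled, because the methods count the day of injury as the first day and the interval since wounding is not settled. Each of the 7 days had 4 libraries. Neither the labels nor the methods say that the 4 libraries of a day came from separate mice, so every p-value below measures the spread between libraries, which may be technical. Total counts lay between 36706513 and 40655764 a library.

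An integrin is an obligate pair of 1 alpha and 1 beta subunit, and the pair decides the ligand. Alpha6beta4 binds laminin-332, a heterotrimer with chains coded by Lama3 and Lamb3, in the hemidesmosomes that anchor basal keratinocytes to the dermis. The beta2 integrins are found on leukocytes, where they serve arrest on endothelium and phagocytosis, whereas alpha5beta1 binds fibronectin and alpha11beta1 binds fibrillar collagen in fibroblasts. Epidermal cells that migrate into a wound are known to deposit laminin-332 ahead of a mature basement membrane. In whole tissue, fewer cells of a type and less RNA per cell cannot be told apart.

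The day 0 libraries fell into 2 pairs, which bears on every comparison with day 0. A chi-square of the counts per degree of freedom, with 1 expected from sampling alone, was 4.46 between day 0 replicates 2 and 3 and 45.5 between replicates 1 and 4. It lay between 128 and 200 across the pairs. The other 6 days gave values between 4.48 and 40.8, the highest of them between day 5 replicate 4 and its fellows. Summed FPKM (a level per gene length and library total) of the 4 basal keratinocyte markers Krt5, Krt14, Krt15 and Trp63 was 2998 and 3479 in day 0 replicates 1 and 4 against 1653 and 1708 in replicates 2 and 3. The 4 fibroblast markers Col1a1, Pdgfra, Dcn and Lum summed to 2490 and 1551 against 5903 and 5724. No marker of any of the 15 lists checked was at 0 in all libraries of a day. The coefficient of biological variation of all genes was 26.5% on day 0 and from 5.77% to 10.8% on the other days. Fits with either day 0 pair alone as the control were therefore added after the values had been seen, and 115 of the 158 called values (a member on a day) passed in the same direction with each pair.

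The levels of the 37 genes moved in both directions at once. On day 3 the edgeR quasi-likelihood test, at an adjusted p (Benjamini-Hochberg, all tested genes) under 0.05, found 19 members higher and 11 lower than on day 0, where 31.8% and 34.8% of all genes were called. Day 5 had 18 members higher (29.0% of all genes), day 7 had 17 (25.6%), day 10 had 15 (23.5%), day 12 had 7 (21.7%) and day 14 had 6 (28.2%). In the same order of days, 10 (30.6% of all genes), 14 (24.8%), 11 (26.9%), 11 (25.6%) and 19 (34.5%) members were lower. As shares of the 37, those higher fell from 51.4% on day 3 to 16.2% on day 14 while those lower went from 29.7% to 51.4%. The median log2 fold change of the members was 0.27 on day 3 and -0.22 on day 14, and that of all genes tested was -0.032 and -0.056. With day 0 replicates 2 and 3 alone as the control, 7 members were lower on day 10, and 13 and 10 were higher on days 12 and 14. No share of all genes called is given for that control, so these counts cannot be set against the whole table.

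**Figure D1:**
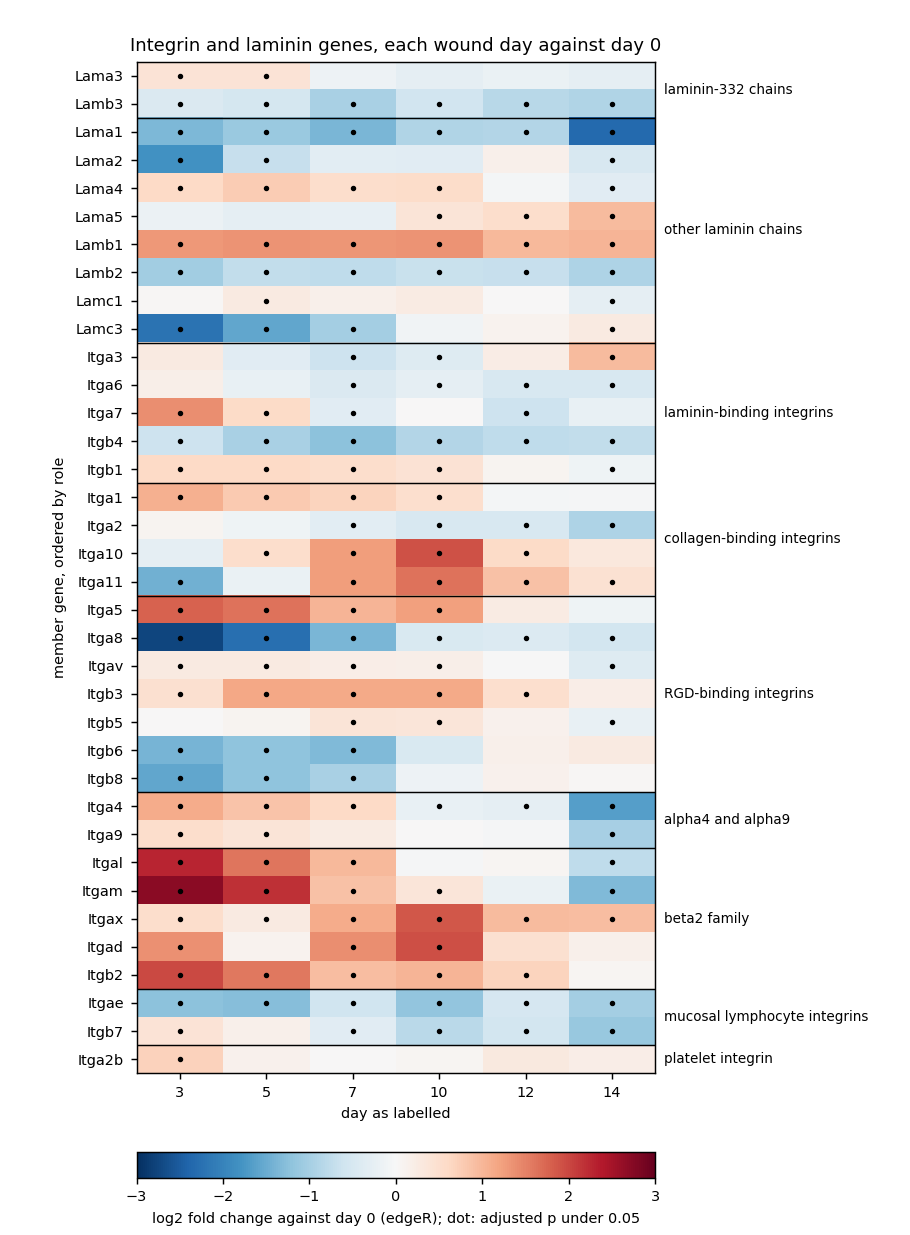
Log2 fold change of 36 of the 37 members (rows, by role) on each wound day against day 0 (columns), with red above and blue below day 0. A dot marks an adjusted p under 0.05. On day 14 there are 6 red and 19 blue dotted cells.

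Larger changes were fewer. By the study's limits of a log2 fold change over 1.5 and an unadjusted P under 0.05, 4 members were higher and 4 lower on day 3, where 6.50% and 12.4% of all genes passed. Day 5 had 4 higher and 2 lower (5.61% and 8.31%), and day 10 had 4 higher and 0 lower (4.33% and 5.14%). On day 14, 0 were higher and 2 lower (5.15% and 8.83%). No member passed on day 7 (4.66% and 4.74% of all genes) or day 12 (3.89% and 3.51%), although 17 and 14 members on day 7 and 7 and 11 on day 12 were called higher and lower by edgeR at the adjusted p. All 37 members differed among the 6 wound days, a test that leaves day 0 out and called 85.1% of all genes.

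Between neighbouring wound days, more members fell than rose at every step but that from day 7 to day 10. From day 3 to day 5, 7 members rose and 10 fell (12.9% and 11.4% of all genes). From day 5 to day 7 there were 7 and 10 (13.9% and 14.6%), and from day 7 to day 10 there were 10 and 6 (14.3% and 18%). From day 10 to day 12, 5 rose and 15 fell (18.7% and 20.7%). From day 12 to day 14, 3 rose, namely Itga3, Itga7 and Lama5, and 19 fell (19.9% and 25.3%). By mean FPKM, 12 of the 37 genes had their highest level on day 3, 9 on day 10 and 0 on day 7, and 13 had their lowest on day 14. The same counts were not made over all genes, and FPKM has no composition normalization.

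Of the laminin-332 chains described here, Lamb3 was lower on every wound day and Lama3 was slightly higher on days 3 and 5. Lamb3, the beta3 chain, which is particular to laminin-332, measured 16.2, 10.4, 10.5 and 20.3 FPKM in day 0 replicates 1 to 4. Its lowest levels were on day 7, at 6.79, 7.95, 7.13 and 7.44 FPKM, all below day 0 (log2 fold change -0.97, SE 0.14, adjusted p = 1.4e-06). It was called lower on all 6 wound days, with log2 fold changes from -0.43 on day 3 to -0.97 on day 7. With day 0 replicates 2 and 3 alone, the calls on days 3, 5 and 10 were lost, at 0.04, -0.06 and -0.11, while those on days 7, 12 and 14 held at -0.51, -0.36 and -0.43. Lama3, the alpha3 chain, measured 4.35, 2.39, 2.64 and 4.95 FPKM on day 0 and 5.14, 4.46, 4.34 and 4.38 on day 3. The groups overlapped, and the log2 fold change of 0.41 (SE 0.16, adjusted p = 0.026) became 0.08 with day 0 replicates 1 and 4 alone, and that of day 5 went from 0.40 to 0.03. After day 5 Lama3 did not pass the test, with log2 fold changes from -0.16 to -0.28. The day 0 pairs disagreed there: with replicates 1 and 4 alone it was called lower on days 7, 10, 12 and 14, at -0.54 to -0.66, and with replicates 2 and 3 alone it lay above day 0, at 0.23 to 0.36, and was called higher on days 7 and 12.

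A ratio of 2 genes within a library does not depend on how libraries are scaled, and it separated these chains more sharply than their levels did. The FPKM ratio of Lama3 to Lamb3 was 0.268, 0.230, 0.252 and 0.244 on day 0. It was 0.431, 0.466, 0.439 and 0.449 on day 3, with every library above those of day 0 although the Lama3 levels themselves overlapped. The day 3 difference was 1.8-fold (log2 0.85, SE 0.053). An exact two-sided permutation test of 4 libraries against 4 gave p = 0.0286, the smallest it allows, and an adjusted p of 0.0414 over the family of 84 tests, which are 14 pairs of members on 6 days. In that family 58 tests passed, each at this p. The ratio was also above day 0 on days 5, 7, 12 and 14 and stood at 0.387 ± 0.0345 (SD, n = 4) on day 14, while on day 10 the groups overlapped, at 0.307 ± 0.04 (exact p = 0.0571).

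The markers of keratinocytes at the wound edge and of basal keratinocytes also moved on day 3. Krt6a, Krt6b, Krt16 and Krt17 summed to between 273 and 402 FPKM on day 0 and between 1198 and 1487 FPKM on day 3. Of these, 3 of 4 were called higher (31.8% of all genes). The 4 basal keratinocyte markers summed to between 1532 and 1946 FPKM on day 3, against 1653 to 3479 FPKM on day 0. Here 3 of 4 were called lower (34.8% of all genes). The part of either list in the change of Lama3 and Lamb3 was not tested.

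Among the receptors of laminin-332, Itgb4 was lower throughout. Against all day 0 libraries its partner Itga6 was called lower only from day 7 on. Itgb4, whose long cytoplasmic tail ties hemidesmosomes to keratin filaments, measured 20.6, 15.6, 15.5 and 24.5 FPKM on day 0. On day 7 it measured 8.19, 8.62, 8.31 and 7.21 FPKM, below every day 0 library (2.36-fold lower, log2 fold change -1.24, SE 0.11, adjusted p = 2.9e-10). It was called lower on all 6 wound days, with -0.63 on day 3 and -0.75 on day 14, and it stayed called with either day 0 pair alone. Itga6, the alpha6 subunit, which can pair with beta1 as well, measured 35.4, 25.0, 24.7 and 38.2 FPKM on day 0 and 24.4, 23.8, 22.4 and 20.5 on day 7. The day 7 libraries lay just below the lowest of day 0 (log2 fold change -0.44, SE 0.10, adjusted p = 8.3e-04). With day 0 replicates 2 and 3 alone all 4 calls of Itga6 were lost, at -0.12, 0.05, -0.16 and -0.18 on days 7, 10, 12 and 14. With that pair Itga6 was called higher on day 3, at 0.49, and with replicates 1 and 4 alone it was called lower on day 5, at -0.47.

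The ratio of Itga6 to Itgb4 was 1.71, 1.60, 1.59 and 1.56 on day 0, where even the 2 pairs of libraries lay close together. It rose to 2.88, 2.71, 2.78 and 2.91 on day 3, was still 2.47 ± 0.0629 (SD, n = 4) on day 10 and fell back to 1.94 ± 0.111 on day 14. All 6 wound days lay above day 0 (adjusted p = 0.0414 each by the exact permutation test). Of the other hemidesmosome genes Col17a1, Dst, Plec and Cd151, 3 were called lower on day 3 and 4 on day 7 (34.8% and 24.8% of all genes). Col17a1, the transmembrane collagen XVII, had the lowest log2 fold change on day 3 (-1.51) and day 7 (-1.43). Cd151, a tetraspanin partner of alpha3 and alpha6 integrins, was called higher on days 3 and 5, at 0.31 and 0.23.

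**Figure D2:**
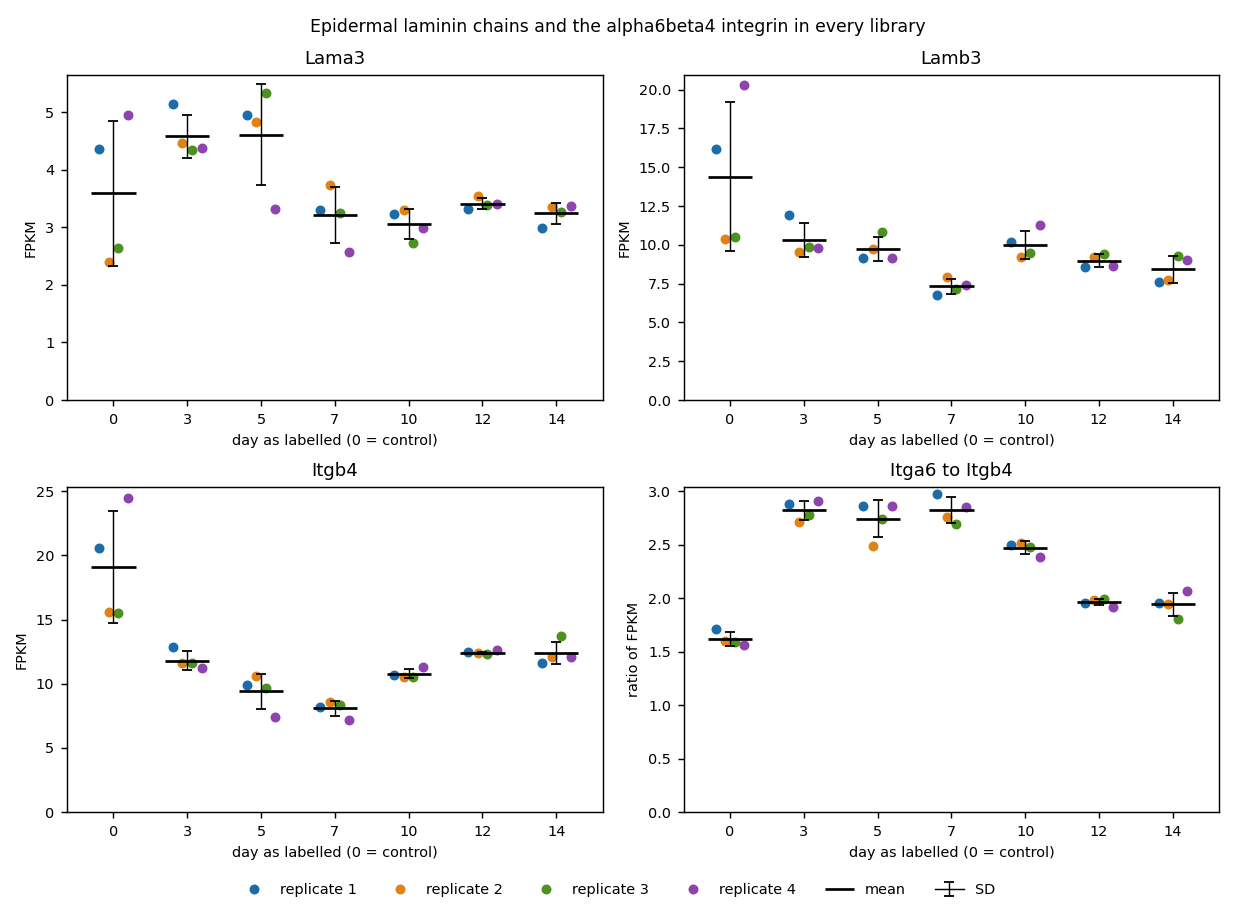
FPKM of Lama3, Lamb3 and Itgb4 and the FPKM ratio of Itga6 to Itgb4 in every library (y axes) by day (x axis). Points are libraries coloured by replicate, bars the mean and whiskers the SD. The 2 pairs of day 0 libraries are visible in each gene, while the ratios run from 1.56 to 1.71 on day 0, all below the day 3 range of 2.71 to 2.91.

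Itga3, the alpha3 subunit of the other laminin-332 receptor alpha3beta1, behaved unlike Itga6 at the end of the series. It measured 10.3, 4.97, 5.15 and 9.26 FPKM on day 0 and 14.9, 15.8, 16.7 and 14.9 on day 14, where no library overlapped with any other day (log2 fold change 0.95, adjusted p = 4.5e-06). The Itga3 to Itga6 ratio was 0.235 ± 0.0416 (SD, n = 4) on day 0, did not pass the test on days 3 to 10, and reached 0.392 ± 0.0338 on day 12 and 0.653 ± 0.0386 on day 14. The last was 2.8-fold above day 0 (exact p = 0.0286, adjusted p = 0.0414). Itgb1, the common beta1 subunit, had the highest mean FPKM of the 37 members on each day and ranged from 88.9 to 155 FPKM. It was called higher on days 3 to 10 with log2 fold changes from 0.44 to 0.60 and was called lower on day 14 at -0.13, a call that was lost with DESeq2 size factors and without composition normalization.

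Itga7, the laminin receptor of muscle, rose early. It measured 11.1, 6.93, 7.03 and 11.7 FPKM on day 0 and 22.1, 24.1, 22.9 and 24.2 on day 3 (log2 fold change 1.40, SE 0.12, adjusted p = 3.5e-11). On day 5 the log2 fold change was 0.57. Itga7 was called lower on days 7 and 12 (-0.33 and -0.62), the first of which was 0.08 with day 0 replicates 2 and 3 alone, and it did not pass on days 10 and 14. On those days the day 0 pairs gave opposite calls, at -0.31 and -0.46 with replicates 1 and 4 alone and at 0.41 and 0.19 with replicates 2 and 3 alone. In the same libraries all 5 skeletal muscle markers (Acta1, Ckm, Myh4, Ttn and Des) were called lower on day 3 (34.8% of all genes). Their sum was 1502 to 1949 FPKM against 6203 to 10184 on day 0. The 4 markers of pericytes and smooth muscle summed to 129 to 134 FPKM on day 3 against 183 to 292 on day 0.

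Among the other laminin chains, Lamb1 rose while Lamb2 fell. Lamb1 and Lamb2 code for the beta1 and beta2 chains, which are alternatives at the same place of the heterotrimer. Lamb1 measured 21.4, 20.7, 20.4 and 19.6 FPKM on day 0 and 47.4, 49.6, 47.3 and 49.1 on day 3 (log2 fold change 1.29, SE 0.065, adjusted p = 6.6e-16). It was called higher on all 6 days and was still at 45.6 ± 2.15 FPKM (SD, n = 4) on day 14. Lamb2 measured 30.0, 36.6, 36.9 and 26.5 FPKM on day 0 and 15.9, 15.8, 14.7 and 14.3 on day 3 (log2 fold change -1.04, SE 0.083, adjusted p = 1.2e-11), and it was called lower on all 6 days. Either day 0 pair alone gave these calls of Lamb2 too, and none of the Lamb1 libraries of a wound day reached down to day 0.

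The Lamb2 to Lamb1 ratio turned over and had not returned by day 14. It was 1.40, 1.76, 1.80 and 1.35 on day 0 and 0.335, 0.319, 0.312 and 0.292 on day 3, a difference of 4.98-fold. On day 14 it was 0.409 ± 0.0232 (SD, n = 4), with no library of any wound day above 0.535. Lamc1, the gamma1 chain found in most laminins, changed little against all day 0 libraries. It lay between 34.6 and 58.1 FPKM, and its log2 fold changes ran from -0.28 to 0.28. The 2 that passed (days 5 and 14) were lost under several settings. With day 0 replicates 1 and 4 alone it was called higher on days 3, 5, 7 and 10, at 0.27, 0.49, 0.34 and 0.44. With replicates 2 and 3 alone it was called lower on day 14, at -0.45.

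Lamc3, the gamma3 chain, fell most of the laminins on day 3 and came back. It measured 4.34, 3.29, 2.99 and 4.08 FPKM on day 0 and 0.884, 0.744, 0.787 and 0.611 on day 3, which was 4.67-fold lower (log2 fold change -2.22, SE 0.12, adjusted p = 2.4e-15). It rose at each step from day 3 to day 10 and on day 14 stood at 4.84 ± 0.492 FPKM (SD, n = 4). The last value was called higher than day 0 at 0.27, but the groups overlapped and the call was lost without day 0 replicate 3, day 14 replicate 3 or day 14 replicate 4 and was 0.15 with day 0 replicates 1 and 4 alone.

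Of the 5 laminin alpha chains, Lama4 was the most abundant by FPKM in every library. By raw counts, which are not divided by gene length, Lama2 exceeded it in day 0 replicate 2 (7253 against 6937). The same held in all 4 libraries of day 12. Of 35 shares, 30 moved when taken from counts. Lama4 is the alpha chain of endothelial and other mesenchymal basement membranes. Its share in the summed FPKM of the 5 chains was 52.0%, 57.5%, 58.5% and 52.3% on day 0 and 73.9%, 76.1%, 76.2% and 76.0% on day 3. From day 3 the share fell to 66.4% ± 1.03 (SD, n = 4) on day 10 and 49.4% ± 1.47 on day 14, and the last lay wholly below day 0. Each of these day differences reached the smallest exact p of 0.0286, with an adjusted p of 0.066 over the 30 tests of shares, so that none passed. Its level was called higher on days 3 to 10, with log2 fold changes from 0.52 to 0.76. On day 14 it was called lower, at -0.33. That value was -0.02 with day 0 replicates 1 and 4 alone and -0.53 with replicates 2 and 3 alone. The endothelial markers Pecam1, Cdh5, Kdr and Tek summed to 171 to 183 FPKM on day 3 against 87.8 to 124 on day 0. Of the 4, 3 were called higher (31.8% of all genes).

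Lama2, the alpha2 chain of muscle and nerve, fell on day 3, when Lama4 rose. It measured 8.84, 15.1, 14.4 and 7.80 FPKM on day 0 and 3.21, 3.25, 3.09 and 2.95 on day 3, 3.54-fold lower (log2 fold change -1.82, SE 0.16, adjusted p = 4.4e-11). Its share in the alpha chains was 6.52% ± 0.185 (SD, n = 4) on day 3 and 25.3% ± 5.5 on day 0. By day 12 the level was 14.1 ± 0.769 FPKM, the highest mean of the series, and from day 12 to day 14 it fell again by 0.62 on the log2 scale (adjusted p = 0.0014). On day 14 the call against day 0 (-0.47) was lost with day 0 replicates 1 and 4 alone, at 0.07. The skeletal muscle markers summed to 2173 to 2483 FPKM on day 12, below the 6203 to 10184 of day 0, and within day 0 they were lower in replicates 2 and 3, where Lama2 was higher. Their part in the course of Lama2 was not tested.

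Lama5, the alpha5 chain of mature epithelial and vascular basement membranes, was highest at the end. It measured 5.26, 3.40, 3.25 and 6.35 FPKM on day 0 and 4.10, 3.96, 3.71 and 3.84 on day 3. By day 14 it had reached 9.68, 10.2, 8.77 and 9.59 FPKM. These libraries lay above those of every other day (log2 fold change against day 0 of 0.94, SE 0.16, adjusted p = 1.5e-05). Its ratio to Lama3 was 1.29 ± 0.0952 (SD, n = 4) on day 0, 0.854 ± 0.0396 on day 3 and 2.95 ± 0.241 on day 14, first below and then above day 0 (exact permutation test, adjusted p = 0.0414 each). The 5 hair follicle markers, which include hair keratins, summed to 1.39 to 4.27 FPKM on day 3 and 1507 to 1974 FPKM on day 14, against 88.7 to 667 on day 0. Whether they bear on Lama5 was not tested.

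Lama1, the alpha1 chain of embryonic basement membranes, was scarce, at 19 to 193 counts a library. It measured 0.358, 0.126, 0.145 and 0.524 FPKM on day 0 and 0.0487, 0.0747, 0.0629 and 0.0624 on day 14. The day 14 difference of -2.33 on the log2 scale (SE 0.33, adjusted p = 5.3e-07) was called with either day 0 pair, at -2.87 and -1.24. The calls on days 3 to 12 rested on day 0 replicates 1 and 4: with replicates 2 and 3 alone they were -0.24, -0.03, -0.26, 0.19 and 0.20, and none passed.

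**Figure D3:**
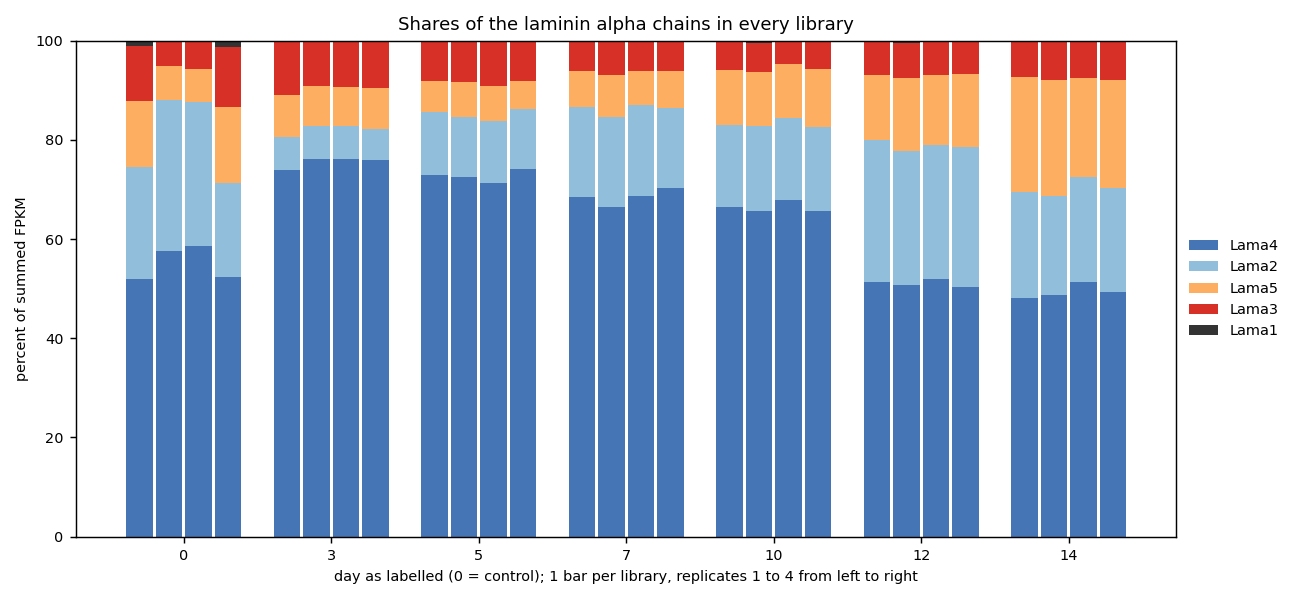
Share of each laminin alpha chain in the summed FPKM of the 5 chains (y axis, percent), 1 stacked bar for each library, grouped by day (x axis). Lama4 widens from 52.0% to 58.5% on day 0 to between 73.9% and 76.2% on day 3, Lama2 narrows to between 6.26% and 6.68%, and Lama5 reaches 19.8% to 23.4% on day 14.

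Of 16 other genes of the basement membrane, 5 were called higher and 8 lower on day 3 (31.8% and 34.8% of all genes), and 10 and 4 on day 10 (23.5% and 26.9%). Col4a1, which with Col4a2 makes the collagen IV network found in all basement membranes, had the highest log2 fold change on day 3 (1.58). Col4a6, a chain of an epithelial network, had the lowest (-3.17). On day 10 the highest was Col7a1, the collagen of anchoring fibrils, at 3.21, and on day 3 it had been lower than day 0 by -1.46. On day 14, Fras1, which sits in the sublamina densa, led at 2.16. Col4a3, another collagen IV chain, was the lowest on both days, at -3.28 and -2.91. Of 5 further laminin receptors, 1 was called higher and 2 lower on day 3 (31.8% and 34.8% of all genes) and 0 and 4 on day 5 (29.0% and 30.6%), with Bcam at -1.03 on the latter day, and Sdc1, a syndecan of epithelia, was called higher on day 14 at 0.98.

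Itgam and Itgax, 2 genes of the beta2 family that lie close together, followed different courses, and their upstream sequences are shown for that reason; the choice was made after their values had been seen. Itgam lies on chromosome 7 from 128062640 to 128118491 and Itgax on the same strand from 128129547 to 128150657, in GENCODE coordinates of GRCm38. RefSeq promoters of GRCm38.p6 were found for 23 of the 37 genes and searched over the 250 bases before the start, on both strands, for the AP-1 element TGANTCA and the PU box GAGGAA. In the lines below, the first sequence is chr7:128062390-128062639 and the other is chr7:128129300-128129525, both on the plus strand and ending before the first annotated start, and capitals mark a match.

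Itgam: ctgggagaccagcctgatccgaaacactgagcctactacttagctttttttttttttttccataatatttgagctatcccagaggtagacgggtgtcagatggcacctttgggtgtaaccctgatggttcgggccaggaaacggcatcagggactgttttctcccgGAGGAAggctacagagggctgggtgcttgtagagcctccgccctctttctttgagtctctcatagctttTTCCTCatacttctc
Itgax: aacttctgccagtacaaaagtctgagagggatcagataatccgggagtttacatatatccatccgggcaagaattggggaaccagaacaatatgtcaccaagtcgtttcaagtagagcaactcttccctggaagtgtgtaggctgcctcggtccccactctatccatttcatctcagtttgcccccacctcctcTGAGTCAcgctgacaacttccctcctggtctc
The Itgam sequence held 2 PU boxes, at -84 and, on the other strand, at -15 from the RefSeq start, and no AP-1 element. The Itgax sequence held 1 AP-1 element at -56 from a RefSeq start that lies past the printed end, and no PU box. Neither promoter of Lamb3 held an AP-1 element. The AP-1 letters occurred in 6.75% of 32851 RefSeq promoters and in 1 of the 23 members, and the PU box occurred in 23.25% of promoters and in 13 members. A match is a description of the letters and not a binding site.

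Integrins of leukocytes had the 3 highest log2 fold changes of all members on day 3. Itgb2, the shared beta2 subunit, measured 30.5, 22.9, 22.2 and 22.5 FPKM on day 0 and 86.3, 97.0, 93.5 and 96.2 on day 3 (3.95-fold, log2 fold change 1.98, SE 0.083, adjusted p = 1.5e-17). Itgam, the alpha subunit CD11b of neutrophils and macrophages, measured 19.2, 13.6, 13.2 and 12.2 FPKM on day 0 and 88.1, 96.2, 88.8 and 90.5 on day 3 (6.50-fold, log2 fold change 2.70, SE 0.11, adjusted p = 1.2e-17). Itgal, the alpha subunit of LFA-1, measured 1.96, 2.42, 2.09 and 1.73 FPKM on day 0 and 9.24, 10.1, 9.69 and 9.25 on day 3 (4.85-fold, log2 fold change 2.28, SE 0.10, adjusted p = 4.6e-17). For these 3 genes the day 3 libraries were all far above day 0, and either day 0 pair gave the same calls, at 2.63 and 2.83 for Itgam. GENCODE also gives 68.67% of the exon bases of Itgam to Gm49368, a transcript on the same strand that is not a row of the table, so reads from the 2 cannot be told apart.

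Afterwards the members of the family parted. Itgam fell at each step, from 64.3 ± 7.29 FPKM (SD, n = 4) on day 5 to 6.40, 6.87, 5.66 and 6.50 on day 14, below every day 0 library (log2 fold change -1.32, adjusted p = 3.8e-11). Itgal was likewise below day 0 on day 14, at 1.33 ± 0.115 FPKM (-0.76, adjusted p = 3.6e-07). Itgb2 was still called higher on day 12 (0.66) and did not pass on day 14, at 0.05. The Itgam to Itgb2 ratio fell from 0.976 ± 0.0373 on day 3, against 0.590 ± 0.0373 on day 0, to 0.229 ± 0.0128 on day 14.

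Itgax, the alpha subunit CD11c of dendritic cells and some macrophages, peaked on day 10 rather than on day 3 as Itgam did. It measured 4.64, 3.26, 2.86 and 4.17 FPKM on day 0 and 5.58, 5.10, 4.97 and 5.03 on day 3. On day 10 it measured 12.4, 14.2, 15.6 and 14.2 FPKM, above every library of every other day (3.64-fold over day 0, log2 fold change 1.86, SE 0.10, adjusted p = 3.2e-14). It remained above day 0 on days 12 and 14, by 0.96 and 0.92. Its ratio to Itgb2 was 0.152 ± 0.024 (SD, n = 4) on day 0 and 0.0557 ± 0.00601 on day 3. It rose to 0.271 ± 0.012 by day 10 and was 0.277 ± 0.00877 on day 14. From day 7 to day 10, Itgax rose by 0.75 (adjusted p = 1.4e-06) while Itgam fell by 0.51 and Itgal by 1.02 on the log2 scale (adjusted p = 4.3e-04 and 7.7e-09). Itgad, the alphaD subunit, was near the limit of detection, with 1 to 23 counts a library. It measured 0.0122, 0.0294, 0.00607 and 0.0325 FPKM on day 0 and 0.0740, 0.0786, 0.0362 and 0.139 on day 10. It was called higher on days 3, 7 and 10 (1.36, 1.39 and 1.94), and the call on day 10 was the only one that DESeq2 shared.

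**Figure D4:**
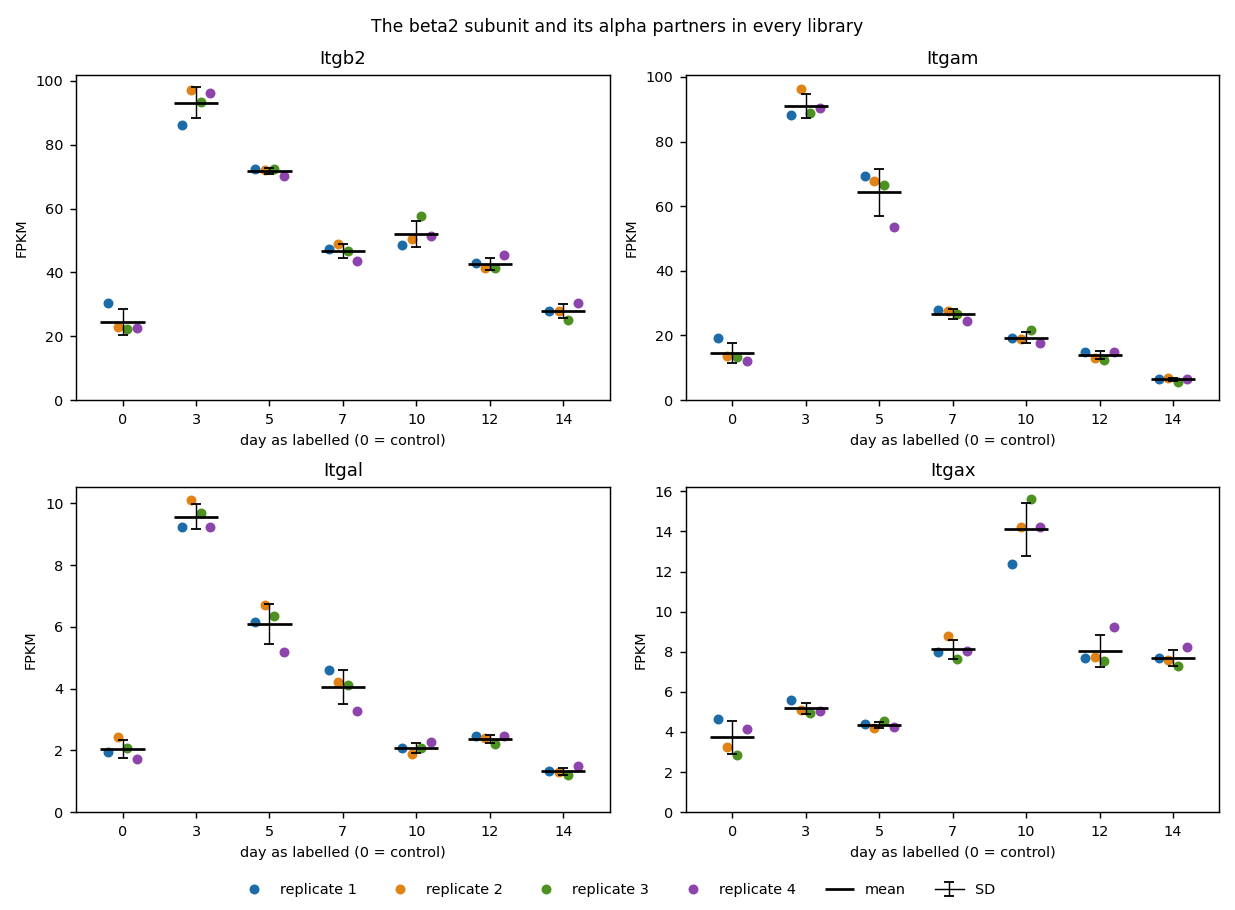
FPKM of Itgb2, Itgam, Itgal and Itgax in every library (y axes) by day (x axis), with points for libraries, bars for the mean and whiskers for the SD. Itgb2, Itgam and Itgal are highest on day 3 and Itgax is highest on day 10, at 12.4 to 15.6 FPKM.

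Leukocyte markers rose with these genes on day 3 but later parted from Itgb2 and Itgax. The 5 neutrophil markers S100a8, S100a9, Csf3r, Cxcr2 and Retnlg were all called higher on days 3 to 10 (23.5% to 31.8% of all genes). They summed to 7622 to 9733 FPKM on day 3 and, a week later, 435 to 492, against a day 0 range of 16.5 to 63.6. The 4 macrophage markers Adgre1, Cd68, Csf1r and Mrc1 summed to 514 to 543 FPKM on day 3, against 188 to 263 on day 0, and came down to 213 to 243 by day 10 and 87.9 to 101 by day 14. The macrophage sum on day 10, where Itgax was highest, thus lay within the day 0 range. On that day 1 of the 4 markers was called higher and 3 lower (23.5% and 26.9% of all genes). Ptprc, Coro1a and Laptm5, which all leukocytes share, summed to 351 to 370 FPKM on day 3, against 125 to 153 on day 0. On days 10 and 12 they summed to 110 to 124 and 109 to 123 FPKM, while Itgb2 was called higher, at 1.03 and 0.66. By day 14 their sum was 61.1 to 67.1 FPKM, while Itgax was called higher, at 0.92. The part of the leukocyte markers in these changes was not tested.

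Of the integrins of mucosal lymphocytes, Itgae fell. Itgae, the CD103 subunit of T cells resident in epithelia, measured 2.69, 2.41, 3.41 and 3.13 FPKM on day 0 and 1.36, 1.11, 1.27 and 1.02 on day 3 (log2 fold change -1.23, adjusted p = 7.9e-09). It was called lower on all 6 days. Its beta partner Itgb7 was called higher on day 3, at 0.40, and lower from day 7 on, down to -1.13 on day 14. Of the T cell markers Cd3e, Cd3d, Cd3g and Cd8a, 3 were called lower on day 3 (34.8% of all genes), and they summed to 10.1 to 13.1 FPKM against 22.6 to 27.8. On days 5 and 7, 2 were called lower and Cd8a was called higher, at 0.80 and 1.27. Cdh1, the epithelial ligand of CD103, was called lower on days 3 to 10, with -1.05 on day 3.

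Itga4 and Itga9, which bind Vcam1 and tenascin among others, rose early and ended low. Itga4 measured 1.99, 2.28, 2.31 and 2.00 FPKM on day 0 and 4.40, 4.40, 4.40 and 4.55 on day 3. By day 14 it was down to 0.695, 0.791, 0.705 and 0.789 FPKM. Both groups were clear of day 0 (log2 fold changes 1.11 and -1.65, adjusted p = 1.0e-11 and 2.1e-14). Between days 12 and 14 it fell by 1.37 on the log2 scale (adjusted p = 5.8e-12). The smaller calls on days 10 and 12 (-0.22 and -0.28) were lost with day 0 replicates 1 and 4 alone. Itga4 shares 8.04% of its exon bases with Cerkl on the opposite strand. Itga9 was called higher on days 3 and 5 (0.52 and 0.38) and lower on day 14, at -1.0. Itga2b, the platelet subunit, passed the test against all day 0 libraries on day 3 alone (0.68, adjusted p = 2.4e-04). With day 0 replicates 1 and 4 alone it was also called higher on days 5, 10, 12 and 14, at 0.49, 0.41, 0.66 and 0.63. With replicates 2 and 3 alone it did not pass on those days, at -0.15, -0.21, 0.02 and -0.07. The platelet markers Pf4, Ppbp, Gp1ba and Gp9 summed to 429 to 437 FPKM on day 3 and 93.4 to 142 on day 0. Of these, 3 were called higher on day 3 (31.8% of all genes), and Gp1ba did not pass, at -0.44. The Itga2b to Itgb3 ratio was 0.435 ± 0.0685 (SD, n = 4) on day 0 and 0.493 ± 0.0334 on day 3 and fell to 0.200 ± 0.0252 on day 7.

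Among the receptors for interstitial matrix, Itga5 was highest on day 3. Itga5, the fibronectin receptor subunit, measured 17.2, 9.0, 8.86 and 13.2 FPKM on day 0 and 38.3, 42.9, 38.1 and 38.7 on day 3 (3.40-fold, log2 fold change 1.77, SE 0.14, adjusted p = 5.2e-12). It was still at 29.6 ± 2.63 FPKM (SD, n = 4) on day 10 and fell by 1.00 on the log2 scale from day 10 to day 12 (adjusted p = 6.5e-07), after which it did not pass against day 0. On day 14 the day 0 pairs gave opposite calls, at -0.39 with replicates 1 and 4 alone and 0.31 with replicates 2 and 3 alone. Its ratio to Itgb1 rose from 0.120 ± 0.0302 on day 0 to 0.277 ± 0.0162 on day 3. Fn1, which codes for fibronectin, did not pass on day 3 (-0.13) and was called higher on days 5, 7 and 10, with 1.10 on day 7, and lower on day 14, at -0.68.

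The collagen receptors Itga1 and Itga11 peaked on different days. Itga1, whose product binds collagen IV and others, peaked on day 3 at 9.59 ± 0.525 FPKM (SD, n = 4) against 4.77 ± 0.816 on day 0 (log2 fold change 1.06). Itga11, the receptor of fibrillar collagen on fibroblasts, measured 2.95, 3.94, 4.43 and 2.41 FPKM on day 0 and first fell to 1.11, 1.27, 1.35 and 1.12 on day 3 (-1.44, SE 0.15, adjusted p = 4.0e-09). It then rose to 10.8, 10.3, 11.8 and 10.7 FPKM on day 10, above every other library (1.62, SE 0.14, adjusted p = 4.0e-10). From its lowest to its highest day the mean level went up 9-fold. The Itga11 to Itga1 ratio was 0.714 ± 0.118 on day 0, 0.126 ± 0.00921 on day 3 and 1.55 ± 0.13 on day 10. The 4 fibroblast markers summed to 1971 to 2373 FPKM on day 3 and 4204 to 4624 on day 10, both within the wide day 0 range of 1551 to 5903.

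Itga10, a collagen receptor known from cartilage, had the same peak at a low level. It measured 0.224, 0.245, 0.222 and 0.178 FPKM on day 0 and 0.831, 0.694, 1.01 and 0.864 on day 10 (3.76-fold, log2 fold change 1.91, SE 0.21, adjusted p = 2.0e-08), on 138 to 201 counts a library. It shares 33.53% of its exon bases with Gm42957 on the same strand, which is not a row of the table. Itga2, the collagen receptor of keratinocytes and platelets, did not rise. It was called lower from day 7 on, though the day 7 call (-0.32) was lost in several settings, among them day 0 replicates 2 and 3 alone at -0.25. On day 14 the log2 fold change was -0.93, when it measured 1.24 ± 0.11 FPKM (SD, n = 4) against 2.16 ± 0.408 on day 0.

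Itga8 had the lowest log2 fold change against day 0 of all members. The alpha8 subunit is found on smooth muscle and on the arrector pili muscle, and nephronectin in the hair follicle is one of its ligands. It measured 3.67, 2.98, 3.14 and 4.76 FPKM on day 0 and 0.700, 0.459, 0.489 and 0.432 on day 3 (6.73-fold lower, log2 fold change -2.75, SE 0.18, adjusted p = 2.7e-13). It rose from day 5 to day 7 and from day 7 to day 10, by 0.89 and 0.93, and stood at 3.02 ± 0.229 FPKM (SD, n = 4) on day 12. The calls on days 10, 12 and 14 (-0.45, -0.41 and -0.54) were lost with day 0 replicates 2 and 3 alone. Npnt, the gene of nephronectin, was called lower on days 3, 5, 7, 12 and 14, with -1.79 on day 3, and did not pass on day 10, at -0.09. The pericyte and smooth muscle markers were divided: Myh11, the smooth muscle myosin, was called lower on all 6 days, with -2.26 on day 3 and -1.74 on day 14, while Rgs5 of pericytes was called higher on days 3, 5, 7, 10 and 14, from 0.22 to 1.16.

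Itgb6 and Itgb8 code for the epithelial and more widely expressed partners of alphav, with which they bind the latent form of TGF-beta. Itgb8 measured 2.40, 2.09, 2.00 and 2.13 FPKM on day 0 and 0.774, 0.680, 0.649 and 0.683 on day 3 (2.98-fold lower, log2 fold change -1.57, SE 0.13, adjusted p = 1.6e-11). It was called lower on days 5 and 7 also, and from day 10 on it did not pass, at -0.15, 0.14 and 0.03. Itgb6 measured 2.29, 1.24, 1.03 and 2.50 FPKM on day 0 and 0.586, 0.642, 0.747 and 0.609 on day 3 (log2 fold change -1.39, SE 0.20, adjusted p = 9.2e-07). Its calls on days 3, 5 and 7 held with either day 0 pair, and by day 14 it was at 2.35 ± 0.267 FPKM (SD, n = 4). It did not pass from day 10 on, but was called lower on day 10 with day 0 replicates 1 and 4 alone (-0.90) and higher on days 12 and 14 with replicates 2 and 3 alone (0.79 and 0.92). Its ratio to Itgb5 on day 3 was 0.0155 ± 0.00157 against 0.0429 ± 0.022 on day 0 (exact p = 0.0286, adjusted p = 0.0414).

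Itgav itself lay between 5.65 and 9.42 FPKM throughout, with log2 fold changes of 0.27 on day 3 and -0.38 on day 14. Itgb3 was called higher on days 3 to 12, at 1.17 on day 5, when it measured 7.54, 7.90, 7.23 and 6.32 FPKM against 3.25, 3.97, 3.70 and 2.28 on day 0. Itgb5 was called higher on days 7 and 10 (0.38 and 0.36) and lower on day 14 (-0.22), a call that was lost in several settings and was -0.02 with day 0 replicates 1 and 4 alone.

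**Figure D5:**
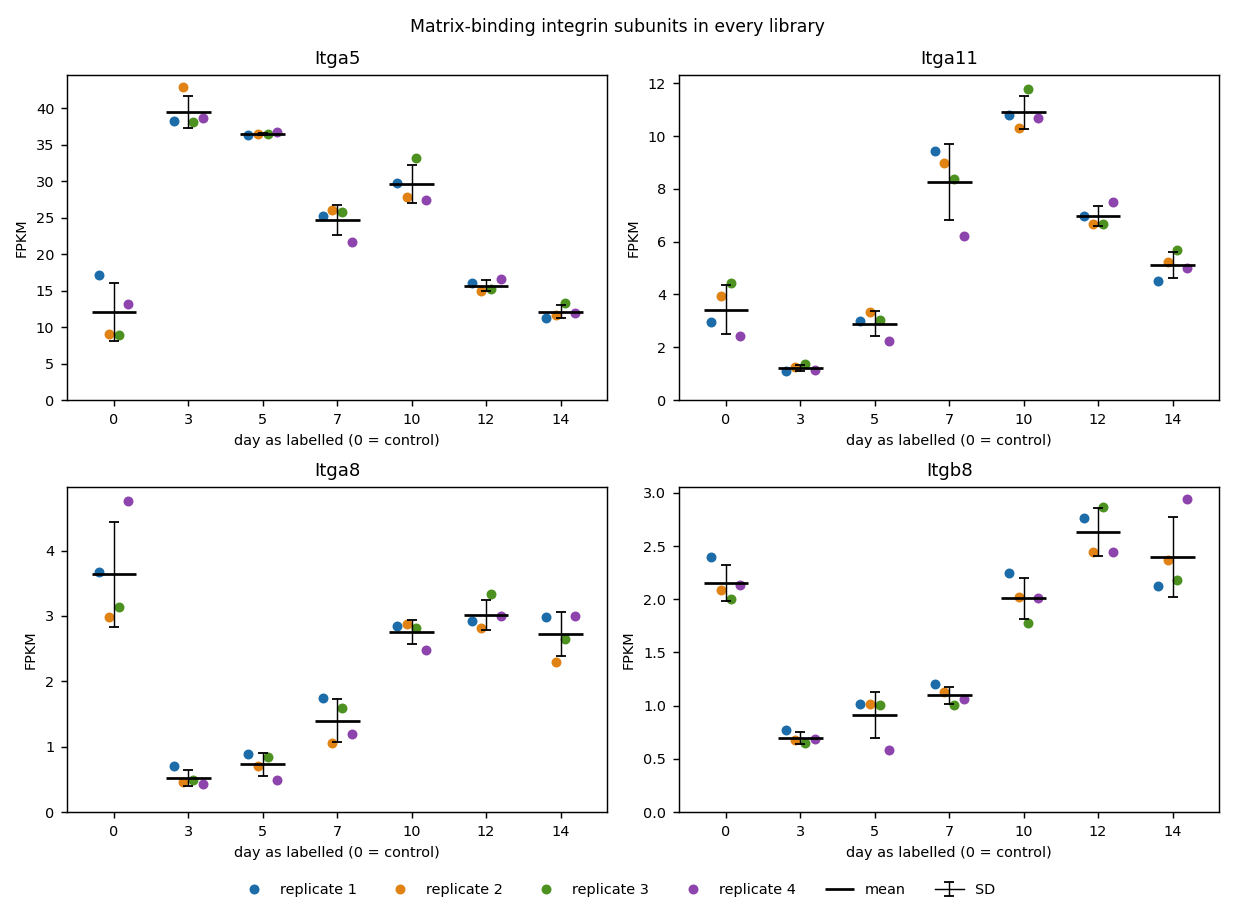
FPKM of Itga5, Itga11, Itga8 and Itgb8 in every library (y axes) by day (x axis), with points for libraries, bars for the mean and whiskers for the SD. Itga5 is highest on day 3 (38.1 to 42.9 FPKM), Itga11 is highest on day 10 (10.3 to 11.8 FPKM), and Itga8 and Itgb8 are lowest on day 3.

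Of 16 genes of integrin ligands that were tested, 7 were called higher and 6 lower on day 3 (31.8% and 34.8% of all genes). Day 10 had 10 higher and 4 lower (23.5% and 26.9%), while day 14 had 3 higher and 10 lower (28.2% and 34.5%). Their median log2 fold change on day 3 was 0.28, against 0.27 for the members. Tnc, the matrix protein tenascin-C bound by alpha9 and alphav integrins, had the highest log2 fold change on day 3 (5.10, SE 0.45), and Spp1, which codes for osteopontin, had the highest on day 5 (4.75). Thbs1 (thrombospondin-1) stood at 4.43 on day 3. Npnt was the lowest on days 3, 5 and 7. Of the 19 genes listed, 3 did not pass the filter on low counts.

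Of 24 genes of the adaptors that link integrin tails to actin, 12 were called higher and 6 lower on day 3 (31.8% and 34.8% of all genes), and 5 and 12 on day 14 (28.2% and 34.5%). Fermt3, the kindlin of blood cells, led on day 3 at 1.64 and on day 5 at 1.21 and was lower than day 0 on day 14, at -0.97. Tln1 (talin-1), which activates integrins from within, was called higher on days 3, 5 and 7, at 0.76, 0.59 and 0.34. Itgb1bp2, known as melusin of striated muscle, had the lowest log2 fold change on day 3 (-2.87), in libraries in which all 5 skeletal muscle markers were lower.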

How the data were processed

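Skin RNA was sequenced in 28 libraries, 4 on each of 7 days. The authors extracted total RNA with TRIzol and built libraries with the VAHTS Universal V6 kit. The submitters' processing notes name fastp, mm10 and R 3.2.0. Strand is not given in the sources used here. The labels count days from day 0, the control, while the methods call the day of injury the first day, so how soon after wounding day 0 tissue was taken is not settled. The authors deposited raw counts per gene and FPKM values, the latter count divided by gene length and library total; no sample was dropped. One member and 3 of the 15 marker lists are counted in the totals but not reported here. Members, lists and tests were chosen with earlier results of these data known.

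Counts were fitted over all 28 libraries with edgeR 4.0.16 in R 4.3.3 (TMM, filterByExpr, quasi-likelihood F-test, Benjamini-Hochberg over 18107 genes), with no covariate. Ratios and shares used FPKM and exact permutation tests (SciPy 1.17.1). The fits alone were tested on simulated counts, with genes changed on day 3 and the same spread of a gene on every day. That simulation held no pairs of day 0 libraries and did not cover ratios or shares. Named in full were Lama3, Lamb3, Itga6, Itgb4, the main beta2 genes and every member with a log2 fold change over 1.5 and an adjusted p under 0.05; pathway genes were named by the largest change on a day, and Fn1, Thbs1, Tln1, Cdh1, Npnt after day 7, Myh11, Rgs5, Cd8a and the values of pathway genes on other days were chosen after their values were seen. After the values were seen, fits with day 0 replicates 1 and 4 or 2 and 3 alone as the control were added. Alternatives were DESeq2 1.42.0, limma 3.58.1, other scalings and filters, a replicate block and leaving out each library. Gene positions and overlaps came from GENCODE on GRCm38, and promoters from RefSeq GRCm38.p6.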

Additional observations from a re-analysis of the deposited data

Results flagged for a closer look

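A library was singled out where its gap to the nearest of the other 3 took up most of the range of its day (Dixon's criterion at the 95% level). This held in 12 of 126 groups of 4 FPKM values of members described in full, where chance alone would give about 6. Day 3 replicate 1 was high in 3 epidermal genes: Lama3 at 5.14 (others 4.34 to 4.46), Lamb3 at 11.9 (others 9.57 to 9.89) and Itga6 at 37.0 (others 31.6 to 32.5). Day 5 replicate 4 was low in Itgb8 at 0.586 (others 1.01 to 1.02) and in Itgb2 at 70.3 (others 72.1 to 72.4). Day 7 replicate 4 was low in Lama2 at 7.15 (others 9.87 to 10.2). Day 12 replicate 4 was high in Itgax at 9.22 (others 7.52 to 7.74) and in Itga10 at 0.476 (others 0.308 to 0.326). The remaining values were Itgb2 at 30.5 in day 0 replicate 1 (others 22.2 to 22.9), Itga4 at 4.55 in day 3 replicate 4 (others all at 4.40), Itga5 at 42.9 in day 3 replicate 2 (others 38.1 to 38.7) and Itga8 at 2.48 in day 10 replicate 4 (others 2.82 to 2.87).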

How the results depend on the processing

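Of 158 called values (a member on a day against day 0), 113 kept their call in every setting run at the adjusted p, which leaves out the study's own limits on fold and P, 45 lost it in at least 1 and 7 of them changed sign. With day 0 replicates 2 and 3 alone, the log2 fold change became 0.04 for Lamb3 on day 3, 0.08 for Itga7 on day 7, 0.17 for Itga3, 0.05 for Itga6 and 0.19 for Lama1 on day 10 and 0.20 for Lama1 on day 12. With replicates 1 and 4 alone it became 0.07 for Lama2 on day 14. The cause was not tested. Of the 64 values not called, 46 were called in at least 1 setting and 49 changed sign in at least 1.

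Members lower on day 10, 11 in number, were 7 with limma voom and weights per day, with limma on log2(FPKM + 1) with or without a filter on low values, with edgeR on the 8 libraries of both days and with day 0 replicates 2 and 3 alone, and 6 with log2(FPKM + 0.1). Members higher on day 12, 7 in number, were 13 without composition normalization, with log2(FPKM + 1) with or without the filter and with day 0 replicates 2 and 3 alone, and 12 with log2(FPKM + 0.1), under which 7 were lower. Members higher on day 14, 6 in number, were 10 with log2(FPKM + 1) and with day 0 replicates 2 and 3 alone and 11 with the filter. Without composition normalization the median of all genes was 0.107 on day 12, against -0.037. Except for the limits of the study, no share of all genes called is given for the settings of this section. Whether the members or the whole table moved under them therefore cannot be told from these counts. Under the limits of the study the members higher in order of the 6 days were 4, 4, 0, 4, 0 and 0, and those lower 4, 2, 0, 0, 0 and 2, since that rule asks for a larger change.

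Leaving out 1 library at a time gave 17 to 22 members higher and 10 to 11 lower on day 3, 14 to 17 and 10 to 13 on day 5, 16 to 18 and 13 to 14 on day 7, 14 to 15 and 8 to 12 on day 10, 6 to 11 and 9 to 11 on day 12 and 5 to 10 and 16 to 19 on day 14. The 11 and 10 higher on the last days came without day 0 replicate 1.

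With the replicate number as a block, 19, 17, 17, 15, 8 and 7 members were higher and 11, 10, 14, 11, 11 and 19 lower on days 3, 5, 7, 10, 12 and 14. The numbers do not pair the libraries: 8 of 28 correlated best with a library of their own number on another day.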
